A study of Mus musculus with 6 samples.

Results

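The enzymes described here modify, trim and cross-link collagen: the lysyl oxidases Lox, Loxl1, Loxl2, Loxl3 and Loxl4, the lysyl hydroxylases Plod1, Plod2 and Plod3, the procollagen C-proteinase Bmp1 and its enhancer Pcolce. They were taken by gene symbol from the array annotation. Of the 10 genes, 9 had at least 1 transcript cluster (a group of probes read together as a gene's signal) of their own, 10 clusters in all, among 20793 genes and 28853 clusters on the array. Loxl3 lay only on clusters shared with Htra2.

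The RNA came from whole, intact digit tips of 8-week-old mice. The 3 arrays of the tested genotype are labelled K14-CreER;Ctnnb1 cKO (cKO below), and the 3 arrays of the control are labelled wildtype. K14-CreER is an inducible Cre recombinase under the keratin 14 promoter, which is active in basal epithelium, so the deletion is aimed at epithelium and not at the fibroblasts and bone cells that make most fibrillar collagen. The sources used here do not say whether the controls carried the Cre, a floxed Ctnnb1 allele or the inducer, or when the inducer was given. The titles call the samples biological replicates without tying each to its own animal, and the p-values can reflect no more than the spread among these 6 arrays.

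Collagen chains are hydroxylated on proline and lysine in the endoplasmic reticulum, fold into a triple helix, and are secreted as procollagen. Lysyl hydroxylases act inside the cell. Outside it, Bmp1 removes the carboxy-terminal propeptide, which lets fibrils assemble, and Pcolce makes that cut more efficient. Lysyl oxidases then oxidise lysine and hydroxylysine residues to aldehydes, which condense into the covalent cross-links that give skin, tendon and bone their strength. Bmp1 is also known to cleave the Lox proenzyme.

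Values are log2 signals relative to the median of the controls for each gene, so 0 is the control median and no absolute level, detection call or order of abundance between genes can be read from them. For the same reason, the presence of a tissue's markers could not be checked, only their differences. Differences are cKO minus control with limma's standard error (SE), and a gene is called higher or lower where the limma p adjusted over all 20793 genes was under 0.05. Ctnnb1, the targeted gene, was at -1.10, -0.87 and -1.06 in the cKO arrays and at 0, -0.19 and 0.59 in the controls, lower by a log2 difference of -1.14 ± 0.24 (limma adjusted p = 0.0285). The positions of its probes relative to the deletion are not given in the files. The call ended without cKO replicate 1 (0.0944), cKO replicate 3 (0.148), control replicate 1 (0.0795) or control replicate 3 (0.138). The array of cKO replicate 1 stood apart in sex-linked genes. Ddx3y, on the Y chromosome, was at 8.08 there and between -0.22 and 0.01 on the other 5 arrays, and Xist was at -5.84 there and between -0.39 and 0.08 on the others. This is the pattern of a male sample beside female ones, which would leave sex unbalanced between the groups. The counts of enzymes and of the gene lists called are therefore also given without cKO replicate 1.

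All 9 measured enzymes had a positive difference, with a median of 0.85, while the median over all genes was -0.0044. Limma called Lox and Bmp1 higher and none lower. These 2 of 9 stand beside a background of 1.24% of all genes called higher, 0.697% called lower and 1.94% called in either direction. An unadjusted p under 0.05 was found for 6 of 9, against 12.5% of all genes. In the same 6 (Lox, Loxl2, Plod2, Plod3, Bmp1 and Pcolce) the lowest cKO array exceeded the highest control, as in 10.1% of all genes, and in none were all cKO arrays below the controls, as in 9.25% of all genes. The 3 whose groups overlapped were Loxl1, Loxl4 and Plod1. Without cKO replicate 1 the call of Bmp1 was kept and that of Lox was not (limma adjusted p = 0.0305 and 0.124), beside 1.01% of all genes called higher. The median over the 9 enzymes was then 0.88. The same 6 enzymes had an unadjusted p under 0.05, against 10.4% of all genes, and both remaining cKO arrays above all controls, against 14.8% of all genes. A digit tip is a mixture of tissues, and in such bulk RNA a larger share of collagen-making cells and more RNA per cell cannot be told apart.

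**Figure D1:**
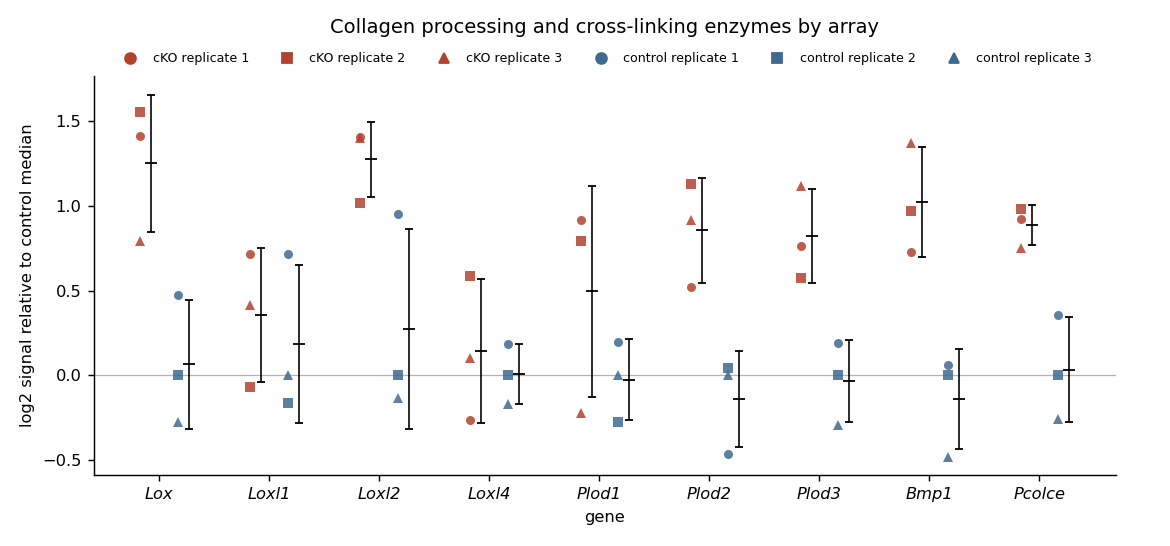
Log2 signal relative to the control median (vertical axis) of the 9 measured enzymes on each array, cKO in red and control in blue, with a symbol per replicate and bars for the mean and SD of 3 arrays. The cKO arrays sit above all controls in 6 genes, and the groups overlap in Loxl1, Loxl4 and Plod1.

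Among the lysyl oxidases, Lox, the founding enzyme of the family, which acts on both collagen and elastin, was at 1.41, 1.55 and 0.79 in the cKO arrays, against 0.47, 0 and -0.28 in the controls. The lowest cKO array, replicate 3, was 0.32 above the highest control, replicate 1. Lox was 2.28-fold higher, by a log2 difference of 1.19 ± 0.27, with a 95% interval of 0.61 to 1.77 (limma adjusted p = 0.0404). The call was held without cKO replicate 3 (0.0455). It ended without cKO replicate 1 (0.124), cKO replicate 2 (0.12), control replicate 1 (0.0523), control replicate 2 (0.0761) or control replicate 3 (0.178), and with arrays centred on their medians (0.0631). The difference stayed between 1.02 and 1.42 when any 1 array was left out.

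Loxl2, which cross-links the type IV collagen of basement membranes as well as fibrillar collagen, was at 1.41, 1.02 and 1.40 in the cKO arrays, against 0.95, 0 and -0.13 in the controls. Its groups did not overlap, but the gap was only 0.07, with control replicate 1 far above the other controls. The log2 difference was 1.0 ± 0.28 with a 95% interval of 0.39 to 1.62, and it was not called (limma adjusted p = 0.117). Without control replicate 1 it was 1.34 and was called (0.0272).

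Loxl1, which is required for elastic fibre upkeep, was at 0.72, -0.07 and 0.42 in the cKO arrays and at 0.72, -0.16 and 0 in the controls. The highest control equalled the highest cKO array to 2 decimals, and the groups overlapped. The log2 difference was 0.17 ± 0.28, and its 95% interval of -0.44 to 0.78 reaches neither the 2-fold rise nor the 2-fold fall that a log2 difference of 1 stands for. It was not called (limma adjusted p = 0.852), and without cKO replicate 1 it was -0.01.

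Loxl4 has a pair of clusters, a short one of 336 bases (positions 42667320 to 42667655 of mouse build mm9, minus strand) and one of 18777 bases (42668462 to 42687238), and their mean was used. The mean was at -0.26, 0.59 and 0.11 in the cKO arrays and at 0.19, 0 and -0.17 in the controls. The cKO arrays lay on both sides of the controls. The log2 difference was 0.14 ± 0.25 (95% interval -0.40 to 0.67, limma adjusted p = 0.867). The short cluster differed by 0.01 and the long one by 0.26. The long cluster varied most among the cKO arrays, at -0.38, 1.06 and 0.13.

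Loxl3 could not be measured apart from Htra2, a mitochondrial protease, because both of its clusters carry both gene names. On the plus strand cluster the values were 0.52, 0.44 and -0.27 in the cKO arrays and 0.14, 0 and -0.35 in the controls. On the minus strand cluster they were -0.12, -0.30 and -0.43 in the cKO arrays and 0.07, 0 and -0.76 in the controls. The groups overlapped on both, and neither was tested.

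Of the lysyl hydroxylases, Plod2, which hydroxylates the telopeptide lysines that lead to the pyridinoline type of cross-link, was at 0.52, 1.13 and 0.92 in the cKO arrays, against -0.46, 0.05 and 0 in the controls. All cKO arrays were above all controls, with a gap of 0.48. The log2 difference was 1.0 ± 0.24, a 1.99-fold higher signal, with a 95% interval of 0.48 to 1.52. It missed the threshold narrowly (limma adjusted p = 0.0584). It passed with robust variances (0.0445) and after removal of clusters that fail the authors' percentile filter (0.038). That filter keeps a cluster when all arrays of either group pass, so a gene high in the cKO can pass through its cKO arrays alone. The pass after filtering is therefore not independent of the difference.

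Plod3, which can also attach glucose and galactose to hydroxylysine, was at 0.77, 0.57 and 1.12 in the cKO arrays, against 0.19, 0 and -0.29 in the controls. The groups were separate, with a gap of 0.38. Its log2 difference of 0.85 ± 0.23 (95% interval 0.35 to 1.35) was not called (limma adjusted p = 0.0988), and was called with array weights (0.0284). Without cKO replicate 1, the array of largest weight, it was not called (0.21). Plod1, which hydroxylates lysines of the triple helix, was at 0.92, 0.79 and -0.22 in the cKO arrays and at 0.20, -0.27 and 0 in the controls. Replicates 1 and 2 of the cKO were above all controls and replicate 3 lay among them. The log2 difference was 0.52 ± 0.29 (95% interval -0.11 to 1.15, limma adjusted p = 0.523), and it was 0.88 without cKO replicate 3 and 0.31 without cKO replicate 1.

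Bmp1 was at 0.73, 0.97 and 1.37 in the cKO arrays, against 0.06, 0 and -0.48 in the controls. The gap between the groups, 0.67, was the widest of the 9 enzymes. Bmp1 was 2.24-fold higher, by a log2 difference of 1.16 ± 0.24 with a 95% interval of 0.64 to 1.69 (limma adjusted p = 0.0269). The call was held without cKO replicate 1 (0.0305) or control replicate 2 (0.0333). It ended without cKO replicate 2 (0.0533), cKO replicate 3 (0.157), control replicate 1 (0.0662) or control replicate 3 (0.134), while the difference stayed between 0.99 and 1.31.

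Pcolce was at 0.92, 0.98 and 0.75 in the cKO arrays, against 0.36, 0 and -0.26 in the controls. The cKO arrays were close together, with an SD of 0.12 against 0.31 in the controls, and lay above all controls. The log2 difference was 0.85 ± 0.23, a 1.81-fold higher signal (95% interval 0.37 to 1.34). It was not called (limma adjusted p = 0.0909), and was called with array weights (0.0122). Those weights were largest for cKO replicate 1, and without that array Pcolce was not called (0.232).

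**Figure D2:**
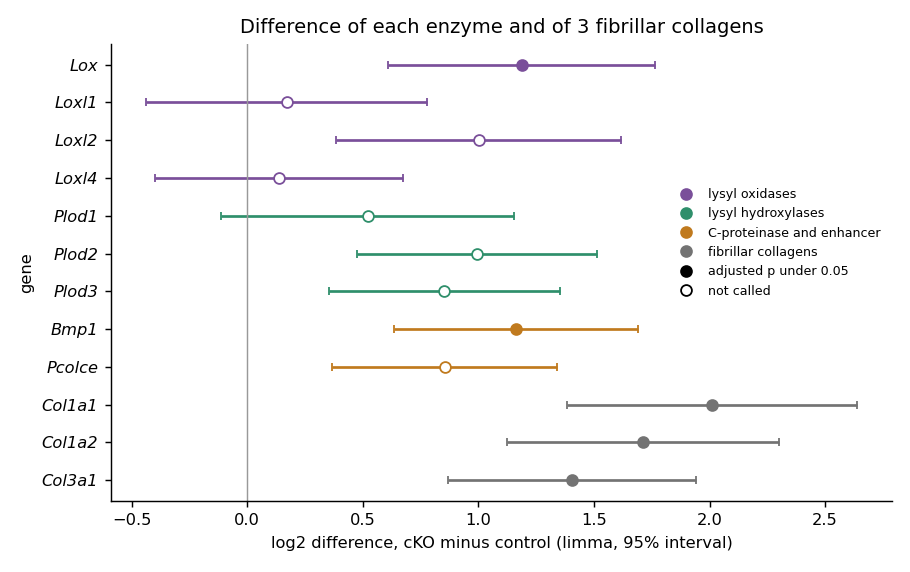
Log2 difference, cKO minus control, with limma's 95% interval (horizontal axis) for the 9 enzymes by class and for 3 fibrillar collagens. Filled points passed an adjusted p of 0.05, which were Lox, Bmp1 and the collagens, and the intervals of Loxl1, Loxl4 and Plod1 include 0.

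By size, the order of the differences was Lox, Bmp1, Loxl2, Plod2, Pcolce, Plod3, Plod1, Loxl1 and Loxl4. No neighbours in that order differed by more than their combined standard error, and the widest step was that of 0.35 between Plod1 and Loxl1. That combined error treats genes read on the same arrays as independent. Against all genes, Lox stood at percentile 98.9 of the differences, Bmp1 at 98.8, Plod1 at 93.1, Loxl1 at 70.5 and Loxl4 at 66.7. Among the control arrays, replicate 1 had the highest value in 8 of the 9 enzymes and replicate 3 the lowest in 6. The median over the 9 enzymes was 0.77, 0.97 and 0.79 on the cKO arrays, against 0.20, 0 and -0.17 on the controls. The cKO arrays had no such order: each was the lowest of its group in 3 of the 9.

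The authors' deposited table of clusters changed at least 1.5-fold holds Lox, Loxl2, Plod2, Plod3, Bmp1 and Pcolce, all higher, as are 4.83% of all clusters. The authors' deposited table of significant clusters holds Bmp1, Pcolce, Plod2 and Plod3, 4 of the 9 genes, beside a background of 1.86% of all clusters listed there as higher and 2.36% in either direction. In the authors' deposited table the signed folds of those 4 lay between 1.81 and 2.24 and the corrected p-values between 0.0355 and 0.0460. Lox, called by limma over all genes, is not in that table, while Plod2, Plod3 and Pcolce are there and were not called by limma. The test of the authors ran only over the clusters that had passed their fold filter.

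**Figure D3:**
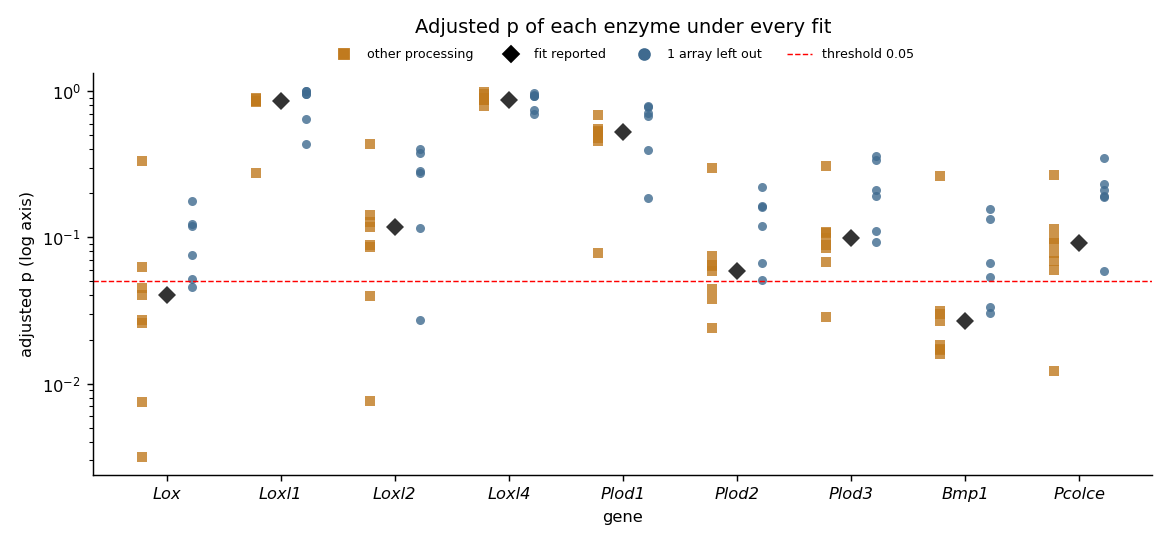
Adjusted p (log axis) of each enzyme in the fit reported (black), with other processing (orange) and with 1 array left out (blue); the dashed line is the threshold of 0.05. Loxl1, Loxl4 and Plod1 stay above the line in every fit shown, while the others cross it in at least 1 fit.

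Promoter windows from RefSeq (build GRCm38.p6, 250 bases before to 50 after the start of the gene) were matched for 4 of the 10 enzymes: Loxl4, Plod1, Plod3 and Pcolce. Those of Pcolce and Plod3 are shown because these 2 had separate groups on the arrays. That of Pcolce is chr5:137611355-137611654 on the minus strand and that of Plod3 chr5:136986769-136987068 on the plus strand. Both strands were searched for the GC box GGGCGG. They were also searched for the promoter element CCAAT and for the TATA box, TATAAA. The core of the motif of the TCF/LEF factors, which beta-catenin joins, was taken as CTTTGA and, as the other form, CTTTGT. Capitals mark the matches.
Pcolce: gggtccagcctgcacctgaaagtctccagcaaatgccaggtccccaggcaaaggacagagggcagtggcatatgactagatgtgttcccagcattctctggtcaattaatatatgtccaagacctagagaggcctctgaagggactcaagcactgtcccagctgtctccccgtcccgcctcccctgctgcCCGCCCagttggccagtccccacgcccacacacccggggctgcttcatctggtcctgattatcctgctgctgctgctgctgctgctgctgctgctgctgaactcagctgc
Plod3: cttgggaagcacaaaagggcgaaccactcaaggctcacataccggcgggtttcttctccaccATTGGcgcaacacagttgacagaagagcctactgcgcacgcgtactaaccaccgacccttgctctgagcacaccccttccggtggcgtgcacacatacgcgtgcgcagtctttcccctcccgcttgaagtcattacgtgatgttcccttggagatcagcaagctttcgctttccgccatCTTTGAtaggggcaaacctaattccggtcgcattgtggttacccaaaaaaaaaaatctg
Pcolce held 1 GC box and no other of these motifs. Plod3 held 1 CCAAT box and 1 TCF/LEF core, which begins 9 bases before the start. Plod1 and Loxl4, whose groups overlapped, each held 3 GC boxes, and neither held a TCF/LEF core. Plod1 also held a TATAAA match, but on the opposite strand and at -232 from the start. Of 32851 windows of that length, 35.7% hold the GC box, 37.4% CCAAT, 13.6% TATAAA and 31.2% the TCF/LEF core, so a match in a single window is common. The share of G and C was 59.3% in Pcolce and 53.3% in Plod3, against a median of 52.7% over all windows.

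Some fibrillar collagens, substrates of these enzymes, were higher too. Of 11 fibrillar collagen genes 5 were called higher and none lower, both with all arrays and without cKO replicate 1, and the median difference was 0.54. The differences of the 6 without a call lay between -0.13 and 0.54. Col11a1, best known from cartilage, was higher by 2.06 ± 0.28, Col1a1 and Col1a2, the chains of type I collagen, by 2.01 ± 0.29 and 1.71 ± 0.27, Col5a2 by 1.80 ± 0.22 and Col3a1 by 1.41 ± 0.25 (limma adjusted p between 0.000675 and 0.00899). The call of Col3a1 ended without cKO replicate 3 (0.0693). The largest enzyme difference, that of Lox, was below each of these 5, but its gap to Col3a1 was within 1 SE, and Lox was above Col3a1 without cKO replicate 3 (1.42 and 1.38) and with array weights (1.39 and 1.36). On the same array, the log2 value of an enzyme minus that of Col1a1 was lower in every cKO array than in every control for 8 of the 9 enzymes, but so it was for 97.4% of all genes. The same measure against Col3a1 held for 4 of 9 enzymes (Loxl1, Loxl4, Plod3 and Pcolce) and 94.1% of all genes. The mean difference in this measure was -1.24 for Loxl1. It was -0.22, -0.40 and -0.24 for Lox, Loxl2 and Bmp1, whose groups overlapped.

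**Figure D4:**
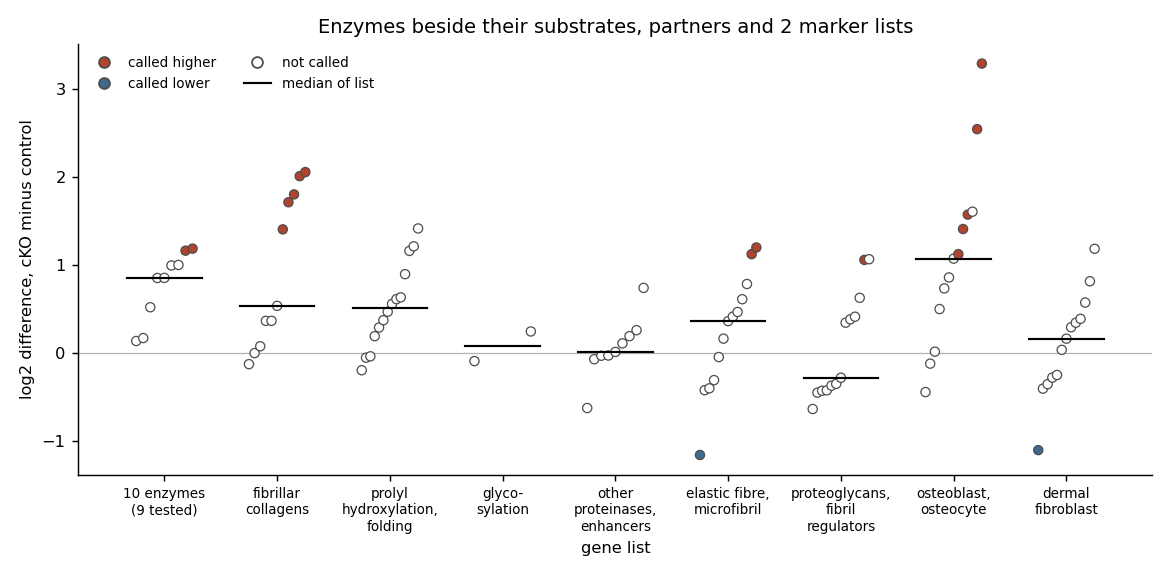
Log2 difference, cKO minus control (vertical axis), of each gene in the enzyme group, 6 related lists and 2 marker lists, with called genes filled (red higher, blue lower) and a line at each list's median. The median of the enzymes is 0.85, that of the fibrillar collagens 0.54 and that of the osteoblast and osteocyte markers 1.07.

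In the lists for the other steps of collagen production no gene was called. Of 14 genes for proline hydroxylation and folding in the endoplasmic reticulum limma called 0, with 8 at an unadjusted p under 0.05 and a median of 0.51. The smallest p-values were those of Fkbp7 (0.90 ± 0.23) and Fkbp14 (1.42 ± 0.38), which are prolyl isomerases, P3h1, a prolyl 3-hydroxylase (1.16 ± 0.37), and P4ha3, a prolyl 4-hydroxylase subunit (1.21 ± 0.39), with limma adjusted p between 0.0867 and 0.184. Single genes of this list passed when 1 array was left out, at most 2 at a time: Fkbp14 without cKO replicate 2 or control replicate 3, P3h1 without cKO replicate 1 or control replicate 2, and P4ha3 without control replicate 2. Fkbp14 also passed with array weights (0.0201). The hydroxylysine galactosyltransferases Colgalt1 and Colgalt2 differed by 0.25 ± 0.23 and -0.09 ± 0.25, neither called. Of 9 further procollagen proteinases and enhancers limma called 0, with 1 at an unadjusted p under 0.05 and a median of 0.01. Adamts2, which removes the amino-terminal propeptide, differed by 0.74 ± 0.25 (limma adjusted p = 0.217), and Tll1 and Tll2, relatives of Bmp1, by -0.63 ± 0.37 and 0.26 ± 0.29, and Furin by 0.19 ± 0.23.

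Genes of elastic fibres and of fibril regulation, some of which bind Lox, differed in both directions. Of 13 elastic fibre and microfibril genes 2 were higher and 1 lower, with a median of 0.36. Efemp2 (fibulin 4), which binds Lox in elastic fibre assembly, was at 0.94, 0.92 and 1.29 in the cKO arrays, against 0.07, 0 and -0.29 in the controls, higher by 1.12 ± 0.22 (limma adjusted p = 0.0167). Its groups did not overlap. Fbln2 was higher by 1.2 ± 0.28 (0.0443), Efemp1 (fibulin 3) fell by 1.16 ± 0.20 (0.00841), and Fbln1 differed by 0.78 ± 0.21 (0.0909). Of 13 fibril-regulating genes, mostly small proteoglycans, Bgn (biglycan) was the 1 called, higher by 1.06 ± 0.25 (0.0496), while the list's median was -0.28. Fmod (fibromodulin), which binds Lox, differed by 1.07 ± 0.29 (0.102), Prelp by -0.64 ± 0.25 and Lum by 0.63 ± 0.26. Fmod and Fbln1 were called with array weights (0.0155 and 0.0192). Calls ended for Bgn without any single array, with centred arrays (0.0627) and with clusters tested singly (0.0543). They ended for Fbln2 without cKO replicate 1 (0.0918), cKO replicate 3 (0.24), control replicate 2 (0.0939) or control replicate 3 (0.193) and with centred arrays (0.053), and for Efemp2 without cKO replicate 3 (0.0976) or control replicate 3 (0.0923). In all, 8 of 62 genes of these 6 lists were higher and 1 lower, with a median of 0.32. The count higher was 4 without cKO replicate 3. Without cKO replicate 1 it was 7, made up of 5 fibrillar collagens, 1 gene for proline hydroxylation and folding, and 1 elastic fibre gene.

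Marker lists of bone cells and of dermal fibroblasts were read in the same fit. Of 13 osteoblast and osteocyte markers 5 were called higher, with a median of 1.07: Ibsp (3.29 ± 0.33), Ifitm5 (2.54 ± 0.27), Sp7 (1.57 ± 0.28), Alpl (1.41 ± 0.23) and Spp1 (1.12 ± 0.20). The differences of the 8 without a call lay between -0.44 and 1.61, and 11 of the 13 were positive. With 1 array left out, between 4 and 7 of these markers were called higher (7 without cKO replicate 1). Sp7 was lost without cKO replicate 3 or control replicate 1, and Spp1 without control replicate 3. The list's median lay between 0.69 and 1.28 on the cKO arrays and between -0.19 and 0 on the controls. Of 13 dermal fibroblast markers none was called higher and Dpp4 was lower (-1.10 ± 0.25, a call that held, with 1 array left out, only without cKO replicate 3), with a median of 0.16. That list's median lay between -0.07 and 0.44 on the cKO arrays and between -0.26 and 0.27 on the controls, and Fap, a fibroblast protease, differed by 1.18 ± 0.38 without a call. All cKO arrays were above all controls in 4 of these 13 markers, in 9 of the osteoblast and osteocyte markers and in 10.1% of all genes. The same held for 6 of 9 endothelial, 5 of 8 osteoclast and 3 of 8 macrophage markers. It held for at most 1 marker in each of the tendon, cartilage, smooth muscle, basal and suprabasal epidermal lists. Over all genes, 1.24% were called higher. Of 8 osteoclast markers Mmp9 (3.01 ± 0.43), Atp6v0d2 (2.85 ± 0.37) and Ctsk (2.23 ± 0.30) were higher, also without cKO replicate 1. Mmp9 was not called without control replicate 1 (limma adjusted p = 0.051). The median of that list was 0.65, and 6 of the 8 differences were positive. The 5 without a call lay between -0.41 and 0.78, the highest being Acp5 (limma adjusted p = 0.18). Whether the enzymes' differences go with cell makeup was not tested.

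The genes with values most like those of a called enzyme were named by the smallest root mean square difference over the 6 arrays. For Lox they were Anxa3 (0.20), Spp1 (0.26) and Mpped2 (0.26). For Bmp1 they were Pth1r (0.11), Efemp2 (0.12) and Il12rb2 (0.14). Because the measure compares the same arrays, genes near a called enzyme share its rise by construction. Their log2 differences lay between 1.01 (Anxa3) and 1.43 (Mpped2). Spp1 and Efemp2 also stand in the lists above.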

How the data were processed

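RNA of 6 digit tip samples was measured on Affymetrix MoGene 1.0 ST arrays, per the file headers. Per the deposited methods sheet, the authors quantile-normalised the signals with PLIER16 and set them to the median of the controls, giving the deposited log2 values. Annotation was release na31 on mm9, as the headers state. A signed fold score and p-values are in the authors' deposited tables, made by keeping clusters above the 20th percentile, then those at 1.5-fold or more, then testing with Benjamini-Hochberg correction. Their test is an ANOVA in the methods sheet but an unpaired t-test in that table's header. Rebuilt from the values, the percentile filter gave the deposited list for 2656 of 2656 clusters changed at least 1.5-fold.

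The test left out 2946 clusters that name several genes and 2936 that name none, symbols were updated by Entrez identifier with a RefSeq table (GRCm38.p6), and clusters of a gene were averaged. All 20793 genes were fitted with limma 3.58.1 in R 4.3.3 (lmFit, eBayes, no covariate, prior degrees of freedom 8.79), tested on simulated data first. Lists are described by counts and medians. The members and lists were chosen with earlier results of these data known. Named are the members, Ctnnb1, up to 4 genes of smallest p from each list, every called gene of the 6 related lists, and the 3 genes most alike each called enzyme. Alternatives were the workbook values, centred arrays, a block for the replicate number, robust variances, array weights, a plain t-test, single clusters, the percentile filter, a minimum fold, and the omission of each array in turn. The number of arrays limits the precision.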

Additional observations from a re-analysis of the deposited data

Results flagged for a closer look

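A cluster shared by Znhit1 and Plod3 was outside the gene-level test because it carries 2 gene names. It spans 5685 bases of the minus strand (positions 137458068 to 137463752 of mm9) and overlaps the first bases of Plod3's own cluster, which is on the plus strand and runs over positions 137462889 to 137472409. Its values were 0.25, 0.34 and 0.02 in the cKO arrays, against -0.21, 0.00 and 0 in the controls, so each cKO array was above each control, as in 10.1% of all genes. The log2 difference of 0.27 was below the 0.85 of the cluster that carries Plod3 alone, and it was not tested.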

How the results depend on the processing

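The 9 enzymes kept a positive difference in each, except Loxl1 without cKO replicate 1 (-0.011) or control replicate 2 (-0.0036) and Loxl4 without cKO replicate 2 (-0.0847). With 1 array left out, the log2 differences ranged from 1.02 to 1.42 for Lox, -0.011 to 0.44 for Loxl1, 0.80 to 1.34 for Loxl2, -0.0847 to 0.34 for Loxl4, 0.31 to 0.88 for Plod1, 0.83 to 1.16 for Plod2, 0.70 to 0.98 for Plod3, 0.99 to 1.31 for Bmp1 and 0.71 to 1.02 for Pcolce. The plain t-test over all genes called neither Lox (1.19, adjusted p = 0.335) nor Bmp1 (1.16, 0.261), and centred arrays ended the call of Lox (1.16, 0.0631). Array weights added Loxl2 (1.25, 0.00764), Plod3 (0.85, 0.0284) and Pcolce (0.96, 0.0122). The weights ran from 0.384 for control replicate 1 to 2.22 for cKO replicate 1, the array that stood apart in sex-linked genes. Without cKO replicate 1 none of these 3 was called (limma adjusted p = 0.274, 0.21 and 0.232). Plod2 (1.0) passed with robust variances (0.0445) and after the percentile filter (0.038), which is not independent of the difference.

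The number of enzymes called higher was 2 in the fit reported, 1 with centred arrays, 5 with array weights, 0 with the plain t-test, 3 with robust variances and after the percentile filter, and between 0 and 1 with 1 array left out. Over all genes, 258 were higher and 145 lower. Array weights gave 523 and 305, the plain t-test 10 and 3, and the percentile filter 309 and 48. Leaving out 1 array gave 133 to 261 higher and 59 to 165 lower, with 133 and 59 without cKO replicate 3, 75 lower without control replicate 1 and 81 lower without control replicate 3. Of the 6 related lists together, 8 higher became 0 with the plain t-test and 4 to 8 with 1 array left out. The 1 lower, Efemp1, was not called with the plain t-test, and the percentile filter removed it. Colgalt2 changed sign with array weights (0.189) and without cKO replicate 2 (0.0761) or control replicate 1 (0.0069), ranging from -0.349 to 0.0761 with 1 array left out. Tll2 changed sign without control replicate 3 (-0.0263) and ranged up to 0.555. The cause of these changes was not tested.

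The labels give both groups replicate numbers 1 to 3, but same-numbered arrays correlated at 0.04, 0.14 and -0.09 in their deviations from the group means over all genes, so the numbers were not taken to pair the samples. With the replicate block, 4 enzymes were called higher, with Loxl2 (1.0, adjusted p = 0.0398) and Plod2 (1.0, 0.024) beside Lox and Bmp1, and 218 genes were lower. The block also gave calls to Fkbp14 (0.00255), P4ha3 (0.0413), Fmod (0.0172) and Fap (0.0471).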

Other observations

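Marker lists of further tissues were called in few genes. Of 10 cartilage markers Chad was lower (-2.34 ± 0.50), with a median of -0.24, and of 5 tendon markers limma called 0, with 1 at an unadjusted p under 0.05 and a median of -0.27. Of 8 basal epidermal markers Krt15 was lower (-1.45 ± 0.23), with a median of -0.07, and of 5 suprabasal markers Ivl was lower (-1.68 ± 0.31). Of 8 macrophage markers Ccr2 (1.63 ± 0.25) and Lyz2 (1.27 ± 0.24) were higher. The calls ended with 1 array left out for Chad (cKO replicate 2 or 3, control replicate 1 or 3), Ivl (cKO replicate 3, control replicate 1 or 3) and Lyz2 (cKO replicate 3, control replicate 3), and did so for neither Krt15 nor Ccr2. Chad was also not called with array weights (-1.58, adjusted p = 0.116) or robust variances (0.26). No cartilage marker was called after the percentile filter, which removed Chad. Of 9 endothelial and 6 smooth muscle markers limma called 0, with 5 and 1 at an unadjusted p under 0.05 and medians of 0.62 and 0.115. Without cKO replicate 1, 2 cartilage markers were called lower, as also with the replicate block. The counts called in the other lists of this paragraph stayed the same without that array.

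A second cluster that names Loxl2, shared with Gm10325, was at -0.05, 0.78 and 0.45 in the cKO arrays and at 0, 0.41 and -0.14 in the controls. Its groups overlapped, and it covers 477 bases on the strand opposite to Loxl2.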
